A study of Mus musculus with 4 samples.

Results

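The regulators of epithelial-mesenchymal transition Snai1, Snai2, Twist1, Zeb1 and Zeb2, the cadherins Cdh1, Cdh2 and Cdh11, and the mesenchymal genes Vim and Fn1 were examined in NF639, a mouse mammary tumour cell line established from a tumour of a mouse carrying an MMTV-neu (ErbB2) transgene. These 10 genes, of 12393 with an unambiguous symbol on the array, were taken by name, with every probe set that the platform annotation assigns to that symbol alone, which gave 15 probe sets. RNA of the resistant group came from a pool of NF639 cells that withstand EGCG, a green tea catechin, and RNA of the original group from the unselected population of the same line. Each group had 2 cultures from separate experiments, and each culture was hybridised to 1 Affymetrix Mouse 430A 2.0 array. The dose of EGCG, the way the pool was selected and whether EGCG was present at harvest are not stated in the labels. The labels do not say how many clones the pool holds. The comparison asks which transcripts differ between cells that grow in spite of EGCG and the population they came from.

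Epithelial-mesenchymal transition is the change by which epithelial cells lose their junctions and take on the shape and motility of mesenchymal cells. The zinc-finger repressors Snai1, Snai2, Zeb1 and Zeb2 bind E-box sequences in the promoters of epithelial genes, of which Cdh1 (E-cadherin) is the best known, and the basic helix-loop-helix factor Twist1 acts with them. In mammary tumour cells the loss of E-cadherin is classically accompanied by a gain of N-cadherin (Cdh2), vimentin and fibronectin.

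Values are MAS5 signals, a background-adjusted intensity per probe set, and the percentile rank of a probe set is the percentage of the 22626 probe sets on its array at or below its signal. Ranks place a probe set on its array, but probe sets differ in how well they hybridise, so they do not order transcripts by abundance. Median array signals lay at 128.7 and 114 in the resistant group, against 135.2 and 115.2 in the original group. Spiked BioB, BioC and BioD controls were brighter on the array numbered 2 in both groups, by 1.39 to 2.46 times in the resistant group and 1.39 to 2.36 times in the original group. Differences between arrays of the same number are therefore given beside the pooled ones.

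In both groups the mesenchymal genes Vim and Fn1 were bright and the 1 probe set of Cdh1 was at the floor of the arrays. Whether that probe set detects the transcript was not tested. Cdh1, the adhesion molecule of epithelial junctions, had signals of 12.7 and 12.2 in the resistant group and 15.3 and 6.7 in the original group, near the bottom of every array. Its percentile ranks were 21.1 and 22.1 on resistant arrays and 22.6 and 16.9 on original arrays, and the groups overlapped. For scale, 20 genes of tissues that are not in the culture, such as liver, pituitary and lymphocytes, gave a median signal of 5.7 over 140 values, with 80% of them between 0.9 and 32.9 (the 10th and 90th percentiles). Of those values, 44.3% were at or above the lowest Cdh1 signal and 23.6% at or above the highest. Of that list, Cela1 and Pomc had 1 probe set each above the filter on dim probe sets.

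Vim, the intermediate filament of mesenchymal cells, lay at the other end of the range. Its brightest probe set, 1450641_at, had signals of 15876 and 19936 on resistant arrays and 18019 and 19212 on original arrays. All 3 Vim probe sets were above the 99th percentile on every array, with lowest ranks of 99.1 in the resistant group and 99.1 in the original group. The groups overlapped in each.

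**Figure D1:**
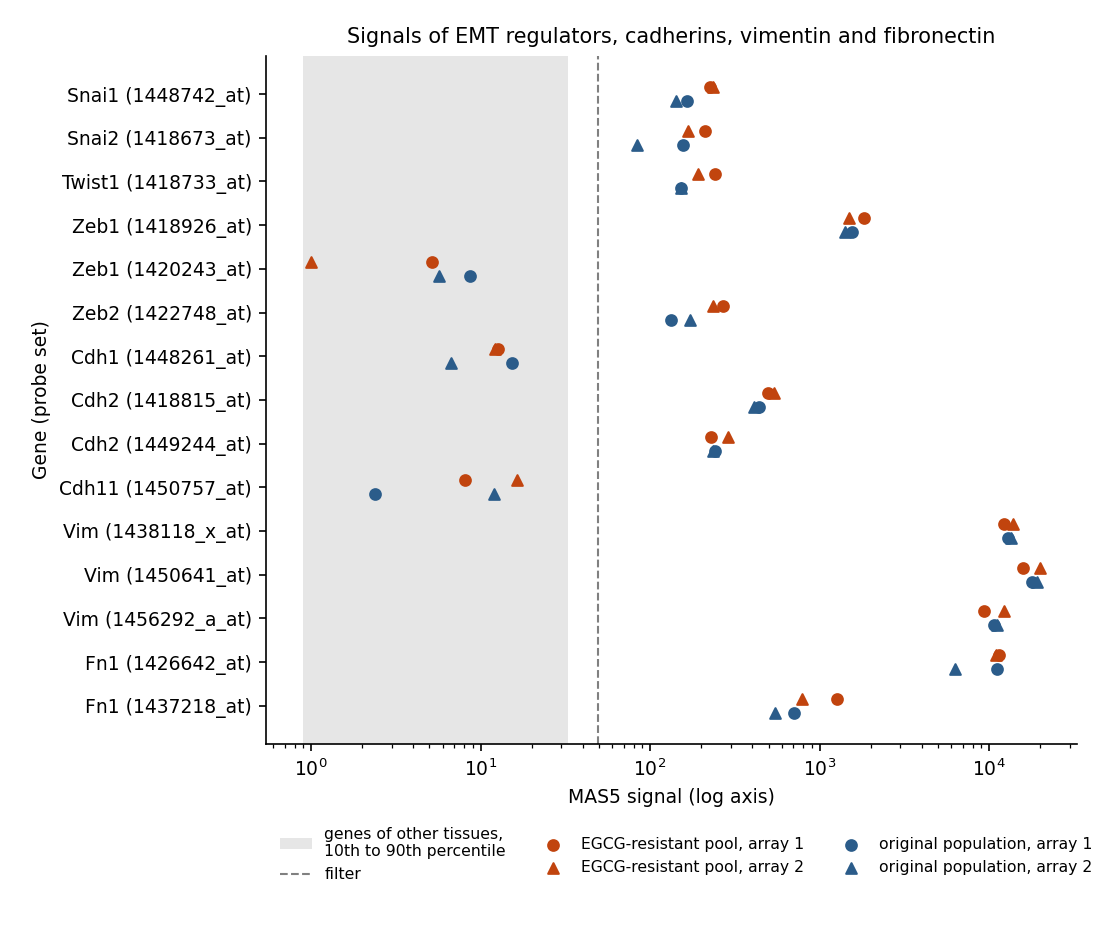
MAS5 signal of each probe set (log axis) on the 2 resistant arrays (upper row of points) and the 2 original arrays (lower row). The grey band is the 10th to 90th percentile of genes of other tissues (0.9 to 32.9) and the dashed line the filter signal of 49.1: Cdh1, Cdh11 and the second Zeb1 probe set fall in the band, and the lowest Vim signal is 9319.

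The repressors were measured well above that floor, with the exception of 1 Zeb1 probe set. In the test for a difference, limma on log2(signal + 3) with Benjamini-Hochberg adjustment at 0.05, 12 of the 15 probe sets, from 8 of the 10 genes, had enough signal to be tested. None of the 12 passed, against 23 of all 13576 tested (0.169%, with 0.0589% called higher in the resistant group). At an unadjusted p under 0.05 there were 2 of 12, both higher in the resistant group, against 7.35% of all tested in either direction and 3.43% higher. The resistant arrays did not overlap with the original arrays and lay higher in 6 of the 12, against 17.7% of all tested probe sets, and lay lower in 0 of the 12, against 18.3%. These 6 belong to Snai1, Snai2, Twist1, Zeb2, Cdh2 and Fn1. With 2 arrays per group an exact permutation test over arrays cannot give a two-sided p below 0.333, so the test rests on the spread that limma shares across probe sets.

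Snai1, a direct repressor of Cdh1, had signals of 227.1 and 235.4 in the resistant group and 164.6 and 141.7 in the original group. Both resistant arrays lay above both original arrays. The log2 difference was 0.59 ± 0.27 (SE, limma adjusted p = 0.688, n = 2 per group), with a 95% interval of -0.0067 to 1.18. It was 0.46 between the arrays numbered 1 and 0.72 between those numbered 2. Its rank was 58.5 and 60.5 in the resistant group and 52.8 and 52.8 in the original group, so the order held without any scaling of the arrays.

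Snai2 (Slug), its close relative, had signals of 210.6 and 167.5 in the resistant group and 156.3 and 83.6 in the original group. The groups did not overlap, but original array 2 lay nearly as far from original array 1 (-0.88 on the log2 scale) as from resistant array 2. The log2 difference was 0.70 ± 0.35 (SE, limma adjusted p = 0.735, n = 2 per group), and 0.26 without original array 2. Between arrays of the same number it was 0.42 and 0.98.

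Twist1, a factor of cranial mesenchyme that promotes invasion of mammary tumour cells, had signals of 243.2 and 191.4 in the resistant group and 152.1 and 152.7 in the original group. The original arrays were close together, and both resistant arrays lay above them. The log2 difference was 0.49 ± 0.28 (SE, limma adjusted p = 0.774, n = 2 per group), 0.67 between the arrays numbered 1 and 0.32 between those numbered 2. Without resistant array 1 it was 0.32.

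Zeb2 (SIP1) had signals of 271.2 and 234.1 in the resistant group and 132.1 and 171.9 in the original group, the largest difference among the regulators. Its log2 difference was 0.73 ± 0.28 (SE, limma adjusted p = 0.579, n = 2 per group), with a 95% interval of 0.11 to 1.34 before adjustment, which is 1.08-fold to 2.54-fold. Both resistant arrays were higher, by 1.02 between the arrays numbered 1 and 0.44 between those numbered 2. Its rank was 61.4 and 60.4 in the resistant group and 49.7 and 55.8 in the original group.

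Zeb1 had signals of 1822 and 1492 in the resistant group and 1547 and 1412 in the original group with probe set 1418926_at, and ranked between 88.2 and 90.9 on the 4 arrays. The groups overlapped and the log2 difference was 0.16 ± 0.18 (SE, limma adjusted p = 0.937, n = 2 per group), with a 95% interval of -0.24 to 0.55. The interval leaves out a difference of more than 1.46-fold upward. The other Zeb1 probe set, 1420243_at, had signals of 5.2 and 1 in the resistant group and 8.7 and 5.7 in the original group, under the filter and lower on both resistant arrays. The probe sets of Zeb1 therefore disagree on whether the gene has a measurable level, and only the first carries information on a difference.

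**Figure D2:**
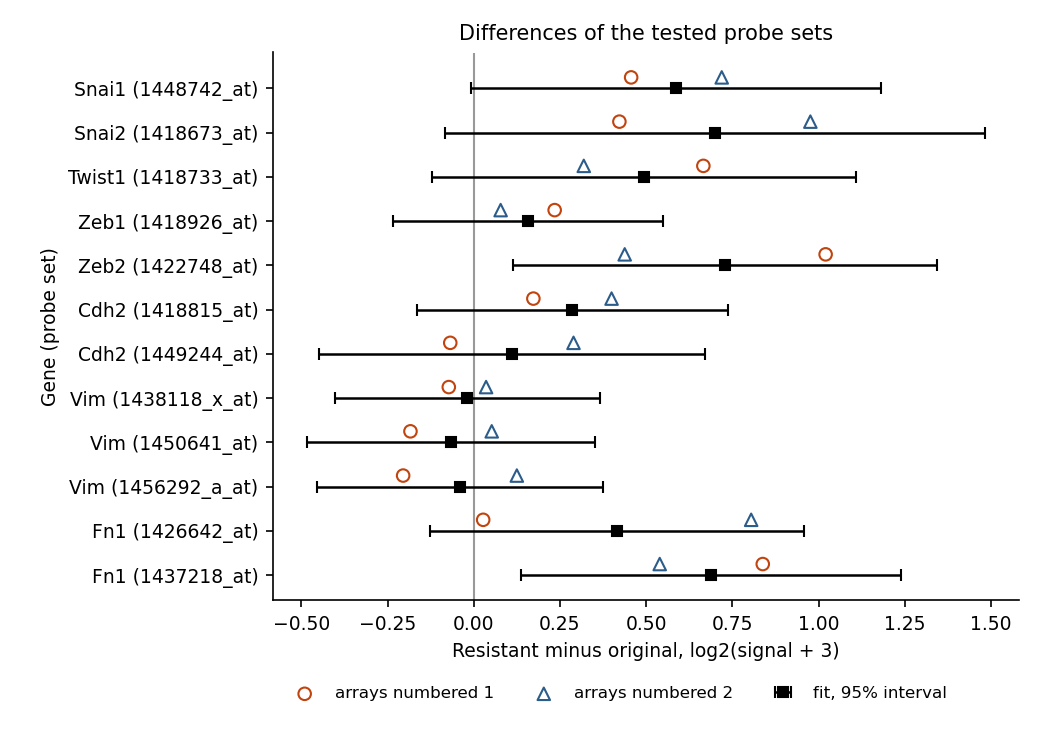
Log2 difference, resistant minus original, of the 12 tested probe sets: squares are the fit over 4 arrays with 95% intervals, open circles and triangles the difference between arrays of the same number. The intervals of Zeb2 and of Fn1 probe set 1437218_at lie above 0 before adjustment, and the Vim squares lie between -0.066 and -0.018.

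The 250 bases before the annotated start of Snai1 hold 1 copy of the E-box that the Snail and Zeb proteins bind (CACCTG, or CAGGTG on the opposite strand, which is the same site). The sequence is shown because Snai1 was the 1 gene with this motif among the 4 with a promoter in the sequence set used (RefSeq, GRCm38.p6). The others were Twist1, Zeb2 and Vim. Cdh1, Cdh2, Cdh11, Snai2, Zeb1 and Fn1 had no promoter in that set and were not searched. The Snai1 sequence is chr2:167537945-167538194, plus strand, with the E-box in capitals, 126 to 121 bases upstream of the start.
Snai1: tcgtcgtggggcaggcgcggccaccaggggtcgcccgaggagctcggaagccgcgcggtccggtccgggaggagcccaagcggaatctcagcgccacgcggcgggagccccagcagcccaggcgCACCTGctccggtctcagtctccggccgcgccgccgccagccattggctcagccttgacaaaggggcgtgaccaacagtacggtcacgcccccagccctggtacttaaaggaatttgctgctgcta
The 6 letters occur in 17.2% of all 32851 promoters of this length, and a match describes the letters only, not binding.

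Cdh2, the N-cadherin of neural and mesenchymal cells, was measured in both groups. The other cadherin members, Cdh1 and Cdh11, had 1 probe set each, at the floor. Probe set 1418815_at had signals of 497.7 and 541.9 in the resistant group and 440.9 and 409.7 in the original group. The groups did not overlap, and the log2 difference was 0.29 ± 0.20 (SE, limma adjusted p = 0.85, n = 2 per group). Its second probe set, 1449244_at, had signals of 229.5 and 288.1 in the resistant group and 240.6 and 235 in the original group, which overlapped, with a log2 difference of 0.11 ± 0.25 (SE, limma adjusted p = 0.985, n = 2 per group). Over both probe sets the 95% intervals reached from -0.45 to 0.74.

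Cdh11, the cadherin of osteoblasts and fibroblasts that is often gained by invasive mammary cells, had signals of 8.1 and 16.5 in the resistant group and 2.4 and 12 in the original group. The groups overlapped within the range given by the genes of other tissues. When the dim probe sets were fitted too, Cdh1 had a log2 difference of 0.21 ± 0.64 (SE) and Cdh11 of 0.71 ± 0.72 (SE), with limma adjusted p = 0.992 and 0.927 (n = 2 per group). The 95% interval for Cdh1 was -1.25 to 1.68, so a change of this gene at the floor was not detectable with these arrays.

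The 3 Vim probe sets gave log2 differences of -0.02 ± 0.17, -0.07 ± 0.19 and -0.04 ± 0.19 (SE, lowest limma adjusted p = 0.991, n = 2 per group). Their sign was negative between the arrays numbered 1 in all 3 (-0.07, -0.18 and -0.20) and positive between those numbered 2 (0.04, 0.05 and 0.12). Their 95% intervals together ran from -0.48 to 0.37, so a difference of over 1.3-fold upward lay outside them. Such bright probe sets may be close to saturation, which was not tested.

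Fn1, which encodes the matrix protein fibronectin, had 2 probe sets that differed in brightness and in pattern. Probe set 1426642_at had signals of 11392 and 11031 in the resistant group and 11172 and 6309 in the original group. Original array 2 was the low one, and the other 3 arrays lay close together. Its log2 difference was 0.42 ± 0.24 (SE, limma adjusted p = 0.796, n = 2 per group), 0.03 between the arrays numbered 1, 0.80 between those numbered 2 and 0.005 without original array 2.

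The dimmer Fn1 probe set, 1437218_at, had signals of 1272 and 790.3 in the resistant group and 709.8 and 542.4 in the original group. The groups did not overlap, and the log2 difference was 0.69 ± 0.25 (SE, limma adjusted p = 0.548, n = 2 per group), 0.84 between the arrays numbered 1 and 0.54 between those numbered 2. It was 0.35 without resistant array 1. With the replicate number as a term of the fit, both Fn1 probe sets passed as higher in the resistant group (limma adjusted p = 0.00367 and 0.00601), against 2.23% of all tested probe sets. With 4 arrays this fit has 1 residual degree of freedom, and its p-values rest almost wholly on the spread shared across probe sets. They do not reflect the unlike differences of 1426642_at between arrays of the same number, 0.03 and 0.80. No other of the 12 probe sets passed in this fit, and Zeb2 had an adjusted p = 0.0592 by limma.

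Epithelial genes, the usual targets of these repressors, were almost all at the floor. Of the 34 epithelial junction and keratin genes on the array, 28 had no probe set above the filter, and 26 had every value under the filter signal of 49.1. Epcam, an epithelial adhesion molecule, had signals of 6.7 and 1.4 in the resistant group and 1.9 and 3.1 in the original group. Krt18, a keratin of simple epithelium, had 22.3 and 7.2 in the resistant group and 25.5 and 8.3 in the original group. Both genes overlapped between the groups.

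The exceptions were mostly scaffold and plaque genes that other cell types also use. Among the 9 tested probe sets of the list, 0 passed, 0 of 9 had an unadjusted p under 0.05 by limma, and the median log2 difference was -0.06, against -0.0035 over all tested probe sets. Tjp1, a tight junction scaffold, had signals of 1025 and 798 in the resistant group and 1061 and 831.6 in the original group. Ppl (periplakin) had 721.5 and 490.7 in the resistant group and 611.6 and 621.6 in the original group, and Pkp2 (plakophilin 2) had 376.7 and 608.8 against 490.6 and 699 in the same order. Grhl2, a transcription factor that maintains epithelial identity, had 71.2 and 90.5 in the resistant group and 120.1 and 153.8 in the original group, with a log2 difference of -0.74 ± 0.34 (SE, limma adjusted p = 0.688, n = 2 per group). Its 4 arrays did not overlap between the groups, and its other 3 probe sets were under the filter. Of these, 1452643_at was higher without overlap, at 4.9 and 28.4 in the resistant group and 2.6 and 2 in the original group. The remaining Grhl2 probe sets overlapped.

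**Figure D3:**
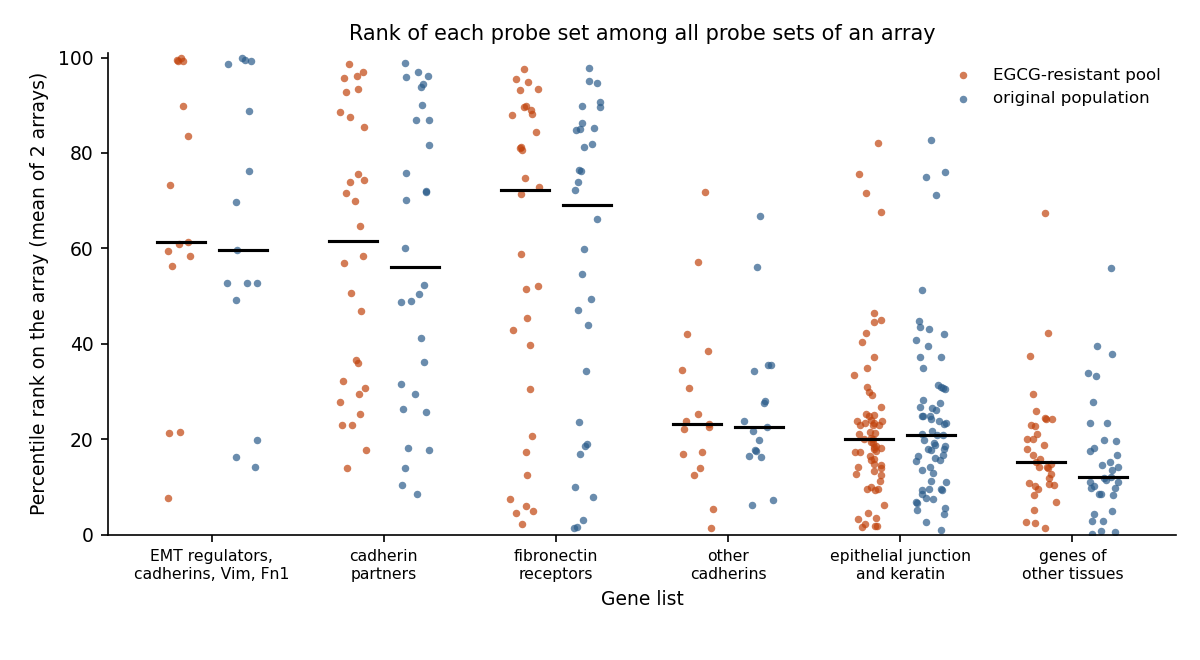
Percentile rank of each probe set (mean of the 2 arrays of a group) by gene list, resistant left and original right, with the median as a bar. The median of the epithelial list was 20.1 in the resistant group and 20.9 in the original group, against 61.3 and 59.8 for the EMT regulators, cadherins, Vim and Fn1, and 15.3 and 12 for genes of other tissues.

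The E-box letters were common in the promoters of these epithelial genes. Of the epithelial genes on the array, 20 had a promoter in the sequence set used. Of these, 15 (75%) held CAGGTG or CACCTG (1 site read on either strand) in the 250 bases upstream of an annotated start. The share over the array was 19.4% of 9887 genes. Among genes with no tested probe set the shares were 14 of 18 in the epithelial list and 24.2% of 3714 genes on the array. Among genes with a tested probe set they were 1 of 2 and 16.5% of 6173 genes. The list holds usual targets of these repressors by choice, so its share describes the list and not these cultures. Binding was not tested. The median G+C content of the windows was 60.2% in the epithelial list and 58.4% over the array genes, and no test was made of the difference in shares. The following windows (GRCm38.p6, motif in capitals with up to 12 bases on each side) show junction, keratin and polarity genes, none of which had a signal above 98.6 on any array.
Epcam, chr17:87635780-87635809, plus strand: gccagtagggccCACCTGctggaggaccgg
Cldn7, chr11:69965312-69965341, plus strand: tttcttcctcttCACCTGgacgaggagggg
Cldn4, chr5:134946935-134946960, minus strand: ctttaactgcagCACCTGtggccgcc
Ocln, chr13:100552549-100552578, minus strand: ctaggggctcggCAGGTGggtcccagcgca
Krt18, chr15:102027990-102028019, plus strand: aggggctaacacCACCTGctatcctttgtg
Rab25, chr3:88548326-88548355, minus strand: catcgctccaccCACCTGtgccccaggtgc
Crb3, chr17:57062071-57062100, plus strand: cccctgtgcttaCACCTGctcatttccgcc
The E-box shown lay 187 to 182 bases before the start in Epcam, 97 to 92 in Cldn7, 68 to 63 in Ocln and 14 to 9 in Cldn4. A second copy lay 19 to 14 bases before the start in Epcam, 57 to 52 in Cldn7 and 213 to 208 in Ocln. Rab25 held a second copy 11 bases further on (in lower case at the end of its window), and Crb3 held 3 copies. Of the genes shown, Crb3, a polarity protein, was the 1 with tested probe sets: its brightest had signals of 95.9 and 88.4 in the resistant group and 98.6 and 66.6 in the original group.

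The proteins that link cadherins to actin were present in both groups. Ctnnb1 (beta-catenin) had signals of 8695 and 7526 in the resistant group and 9140 and 8529 in the original group, with a log2 difference of -0.13 ± 0.17 (SE, limma adjusted p = 0.954, n = 2 per group). Ctnna1 (alpha-catenin) had 3927 and 3784 in the resistant group and 3542 and 3729 in the original group, and Vcl (vinculin) had 4193 and 4734 against 4939 and 4432 in the same order with its brighter probe set. The other Vcl probe set did not overlap, at 626.9 and 559.1 in the resistant group and 1195 and 638 in the original group. Its log2 difference was -0.56 (limma adjusted p = 0.711, and 0.0485 with the replicate number as a term). Of 19 tested probe sets of cadherin partners 0 passed, 0 had an unadjusted p under 0.05 by limma, 7 were fitted above 0 and 12 below, and the median was -0.07.

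Of the 13 other cadherins on the array, Cdh13 was the 1 with tested probe sets. Cdh13 (T-cadherin, a membrane-anchored form without a cytoplasmic tail) had signals of 438 and 517.4 in the resistant group and 346 and 376.7 in the original group. These did not overlap, and the log2 difference was 0.40 ± 0.22 (SE, limma adjusted p = 0.767, n = 2 per group). A dimmer Cdh13 probe set overlapped, at 197.2 and 205.1 in the resistant group and 210 and 168.9 in the original group (log2 difference 0.09), and the remaining one had no signal above 9.6 and was lower on both resistant arrays. Cdh10, a neural cadherin, had 55.3 and 67.6 in the resistant group and 35.6 and 37.3 in the original group, a mean under the filter. Cdh3, the P-cadherin of basal mammary cells, was at 8.6 and 7.3 in the resistant group and 11.9 and 32.9 in the original group.

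Other regulators and corepressors of the transition included 30 tested probe sets, of which 0 passed, 3 had an unadjusted p under 0.05 by limma and 24 were fitted above 0 (49.5% of all tested probe sets were), with a median log2 difference of 0.14. That median was 0.04 without resistant array 1 and 0.24 without resistant array 2. Ctbp1, a corepressor recruited by Zeb proteins, had signals of 2793 and 2972 in the resistant group and 2070 and 2309 in the original group, with a log2 difference of 0.40 ± 0.16 (SE, limma adjusted p = 0.612, n = 2 per group). Kdm1a, the histone demethylase that binds Snai1, had 1493 and 1534 in the resistant group and 1223 and 1178 in the original group with its brighter probe set. Both of these probe sets were higher on both resistant arrays. The other Kdm1a probe set overlapped, at 572.1 and 735.2 in the resistant group and 581.6 and 547.8 in the original group. Hdac1, a deacetylase of the same complexes, had 1193 and 1209 in the resistant group and 1169 and 1365 in the original group, which overlapped, as did Csnk1a1.

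Id1 and Id3, which encode inhibitors of basic helix-loop-helix factors, had the largest differences among the tested probe sets of that list and were chosen for mention after their values were seen. Id1 had signals of 1105 and 1324 in the resistant group and 627.8 and 558.4 in the original group, with a log2 difference of 1.03 ± 0.19 (SE, limma adjusted p = 0.0976, n = 2 per group). Id3 had 866 and 1030 in the resistant group and 575.9 and 491 in the original group, with a log2 difference of 0.82 ± 0.20 (SE, limma adjusted p = 0.216, n = 2 per group). The groups did not overlap in either gene. Both passed with the replicate number as a term (limma adjusted p = 1.71e-06 and 0.000588), where 2.23% of all tested passed as higher. That fit has 1 residual degree of freedom. Neither gene passed in any other fit on all 4 arrays.

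Receptors and assembly partners of fibronectin had 22 tested probe sets, of which 0 passed, 4 had an unadjusted p under 0.05 by limma (7.35% of all tested did) and 15 were fitted above 0 (49.5% of all tested). The median log2 difference was 0.23, and 0.10 to 0.35 over the alternatives. Itgb1, the beta subunit of the main fibronectin receptor, had signals of 3069 and 3866 in the resistant group and 3203 and 3039 in the original group with its brightest probe set, and Itgav had 4709 and 5776 against 5582 and 5651 in the same order. Both overlapped. Sdc1, a syndecan that binds fibronectin through heparan sulfate, had 2381 and 2531 in the resistant group and 2143 and 1499 in the original group, with a log2 difference of 0.45 ± 0.20 (SE, limma adjusted p = 0.652, n = 2 per group). As for Fn1, original array 2 was the lowest for Sdc1. With the replicate number as a term 4 of the 22 probe sets passed as higher (2.23% of all tested did), 2 of Sdc1 and 1 each of Sdc2 and Itga5, not including the Sdc1 probe set given above. The Itga5 probe set overlapped between the groups, with a log2 difference of -0.08 between the arrays numbered 1 and 1.12 between those numbered 2.

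Filament proteins other than Vim, with their partners, had 10 tested probe sets, from 5 genes. Of these 0 passed, 2 had an unadjusted p under 0.05 by limma (7.35% of all tested did) and 3 were fitted above 0 (49.5% of all tested). The median was -0.30, but -0.15 without resistant array 2 and -0.17 without original array 2. Single probe sets of the list ran from -0.74 to 1.23. Nes (nestin), a filament protein that assembles with vimentin, had signals of 354.8 and 463.6 in the resistant group and 587.8 and 606.1 in the original group with its brightest probe set, which did not overlap. Its log2 difference was -0.56 ± 0.22 (SE, limma adjusted p = 0.586, n = 2 per group). Plec (plectin), which ties vimentin to adhesions, had 5646 and 6846 in the resistant group and 5165 and 5006 in the original group, and Lmna had 4360 and 5018 against 5175 and 6670 in the same order.

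**Figure D4:**
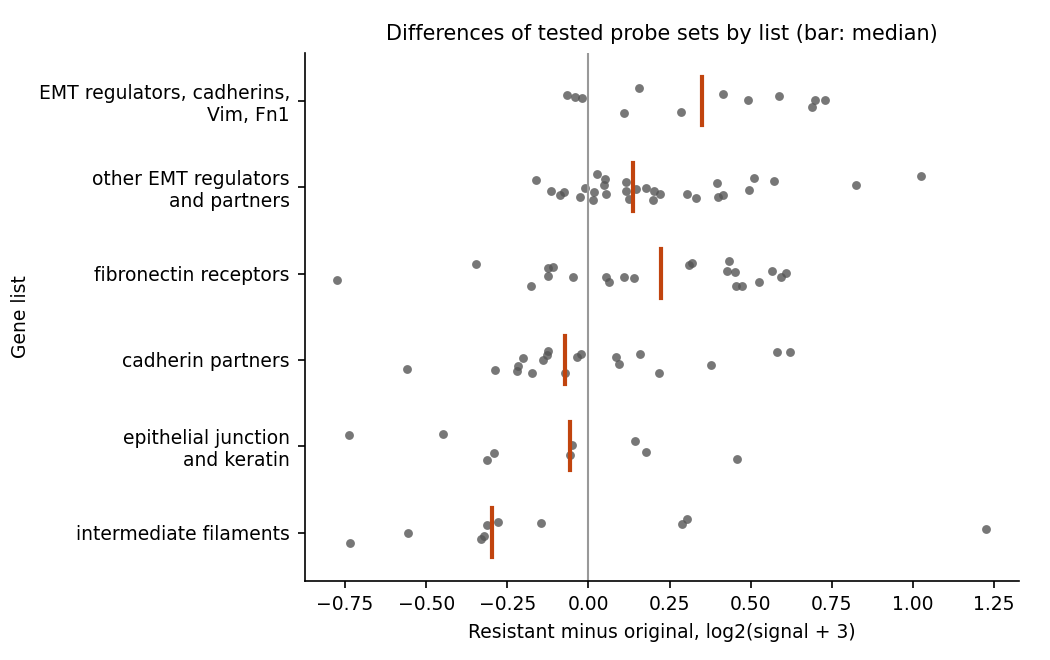
Log2 difference, resistant minus original, of each tested probe set by gene list, with the median of each list as a bar. Medians ran from -0.30 for intermediate filaments to 0.35 for the EMT regulators, cadherins, Vim and Fn1, and no probe set shown passed the limma test over all probe sets.

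Markers of cell types that the culture could hold were set beside these values. Of the 8 luminal epithelial markers, Erbb2 and Gata3 had tested probe sets, and the summed signal of the list was 610.9 to 683 in the resistant group and 534.2 to 609.3 in the original group. The 6 basal or myoepithelial markers summed to 1394 and 3243 in the resistant group and 1100 and 496.3 in the original group. Of these, Acta2 (smooth muscle actin) had a tested probe set, with signals of 1165 and 2855 in the resistant group and 932.7 and 295.2 in the original group. Neither marker sum overlapped between the groups, the luminal sums by a margin smaller than the spread within either group. Krt14, a basal keratin, had 35.7 and 124.2 in the resistant group and 31.3 and 28.8 in the original group with its brightest probe set, high on 1 resistant array.

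Of the 8 fibroblast markers 5 had tested probe sets, and their summed signal was 6964 to 8286 in the resistant group and 7968 to 9472 in the original group. Col1a2, a type I collagen chain, had 2427 and 3229 in the resistant group and 4172 and 4416 in the original group, and Dcn (decorin) had 124.9 and 37.9 in the resistant group and 729.1 and 136.7 in the original group. Col1a1, the partner chain, had 277.3 and 412.1 in the resistant group and 172.5 and 164.4 in the original group with its brighter probe set. These 3 genes did not overlap between the groups, with differences of opposite sign, and none passed (lowest limma adjusted p = 0.24 in the list, for Col1a2, n = 2 per group). With the replicate number as a term, 3 of the 9 tested fibroblast probe sets passed as higher (Col1a1, Pdgfra and Pdgfrb) and 3 as lower (Dcn and both of Col1a2), against 2.23% and 3% of all tested. The fibroblast markers Fap, Thy1 and Lum were under the filter, with no signal above 21.9. Leukocyte markers summed to 362.3 to 374.7 in the resistant group and 349.1 to 390.7 in the original group, and endothelial markers to 52.2 to 64.3 in the resistant group and 45.9 to 98.4 in the original group. The sums overlapped for fibroblast, leukocyte and endothelial markers, and their part in the values of the EMT genes was not tested. In a bulk culture, fewer cells of a type and less RNA per cell cannot be told apart.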

How the data were processed

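RNA of 4 NF639 cultures was measured on Affymetrix Mouse 430A 2.0 arrays, 2 per group. Each deposited value is a linear MAS5 intensity, per the submitters' processing notes, with no version named there. Detection calls were not used here. The authors' trimmed mean, without the top and bottom 2%, was 500.2 on each array. Control probe sets (64 of 22690) were left out of all tests. Symbols were taken from GEO's platform table, with exactly 1 for 20380 probe sets, more than 1 for 691 and no symbol for 1555. By gene identifier, 20351 matched GRCm38.p6.

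Arrays were rescaled to a common trimmed mean and log2(signal + 3) was taken, 3 being the rounded 10th percentile of signals. Fold changes on this scale understate the change of dim genes. A probe set was tested where its mean log2 value reached the 40th percentile, equal to a signal of 49.1. The resistant minus original difference was fitted with limma 3.58.1 (R 4.3.3; eBayes with a mean-variance trend, two-sided, Benjamini-Hochberg over 13576 probe sets, threshold 0.05). The fit was also run on simulated data with independent noise and no effect of array number. In the spiked controls these arrays differed by number, so the simulation does not measure error rates here. The number of arrays limits the precision, and p-values measure the spread between these cultures, largely as limma shares it across probe sets. Promoters, as 250 bases upstream of annotated starts in RefSeq (GRCm38.p6), were searched for CAGGTG and CACCTG.

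The genes and 12 comparison lists were chosen with earlier results of these data known. All 10 genes are described; of each other list, called genes or otherwise up to 4 with the highest mean signal were to be named, and Epcam, Krt18, Cdh3, Crb3, Col1a1, Fap, Thy1, Lum, Id1, Id3, Sdc2, Itga5 and genes in the closing section were added after their values were seen. Alternatives were other pseudocounts, filters, normalizations and variance models, the replicate number as a term, and each array left out.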

Additional observations from a re-analysis of the deposited data

How the results depend on the processing

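The number of probe sets called among all tested was 23; it was 5 with no filter on dim probe sets, 10 with a filter at the 60th percentile, 8 with quantile normalization, 0 without the variance trend (922 at an unadjusted p under 0.05) and 710 with the replicate block, and 68 to 111 with 1 array left out. Of the EMT regulator, cadherin, Vim and Fn1 probe sets, 0 passed in any setting but the replicate block, where 2 did (both Fn1). In the 6 pathway lists, 7 of 92 tested probe sets passed with the replicate block, against 5.23% of all tested. They were higher for Id1, Id3, Sdc1, Sdc2 and Itga5 and lower for Vcl. With 1 array left out, the log2 difference of Id1 was 1.11 without original array 1 and 1.16 without resistant array 1. That of Des was 2.45 without original array 2. The labels do not say that a number marks a shared experiment; deviations from the group means correlated at 0.352 between arrays of the same number, a value that 2 pairs share by construction. In the marker lists the block called 6 fibroblast probe sets and 1 each of Acta2, Gata3 and Cela1.

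In every alternative that tested them, the Snai1, Snai2, Twist1, Zeb1, Zeb2 and Fn1 probe sets above the filter kept a positive difference. For Snai1, Snai2, Twist1, Zeb2 and the dimmer Fn1 probe set, both resistant arrays lay above both original arrays. Leaving out an array, or changing the pseudocount, filter or variance model, could therefore not change their sign. The Zeb1 probe set and the brighter Fn1 probe set overlapped and could have changed sign. The Snai1, Snai2, Twist1 and Zeb2 probe sets were too dim to be tested with the filter at the 60th percentile. The dim Zeb1 probe set, fitted with no filter, was at -0.82. The sign changed for all 3 Vim probe sets without resistant array 1, for Vim 1438118_x_at also without original array 2 (0.01), and for Cdh2 1449244_at without resistant array 2. With an array left out, Vim 1438118_x_at ran from -0.10 to 0.068, Vim 1450641_at from -0.23 to 0.10, Vim 1456292_a_at from -0.23 to 0.15 and Cdh2 1449244_at from -0.052 to 0.27; Snai2 ran from 0.26 to 1.14, the brighter Fn1 probe set from 0.005 to 0.83 and Zeb1 from 0.01 to 0.30. Fitting the dim Cdh1, Cdh11 and Zeb1 probe sets called 0 of 3, and ranks were higher on both resistant arrays for 6 of 15 probe sets and lower for 2 (18.8% and 18% of all probe sets), and for 6 and 1 of the 12 tested (19.9% and 18.9%). Dimness limits Cdh1 and Cdh11.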

Other observations

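Some epithelial genes under the filter had arrays that did not overlap between the groups, and they were picked after their values were seen. Cldn1, a tight junction claudin, had signals of 21.4 and 9.8 in the resistant group and 64.9 and 61.4 in the original group with probe set 1437932_a_at, and 20.1 and 5.6 in the resistant group and 71.9 and 43.9 in the original group with 1450014_at. Another Cldn1 probe set, 1438851_x_at, had 11.4 and 2.5 in the resistant group and 16.7 and 22.1 in the original group, also without overlap, and the remaining one overlapped. The protease gene St14 (matriptase) ran the other way, with 32.7 and 19.4 in the resistant group and 5.5 and 4.5 in the original group. When dim probe sets were fitted, the lowest limma adjusted p was 0.612 for Cldn1 and 0.64 for St14, so neither passed. Prrx1, from the list of other EMT regulators, was also under the filter. Its probe set 1425528_at had 15.3 and 7.7 in the resistant group and 47.8 and 48.1 in the original group. Fitted with no filter, its log2 difference was -1.87 (limma adjusted p = 0.622). Prrx1 probe sets 1425527_at and 1432129_a_at were also lower without overlap, and 1425526_a_at overlapped. Gata3, the regulator of luminal mammary fate, had 212.9 and 185.9 in the resistant group and 123.3 and 82.1 in the original group, with a log2 difference of 0.96 ± 0.32 (SE, limma adjusted p = 0.473, n = 2 per group).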
